A study of Mus musculus with 8 samples.

Results

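The genes described here are 9 genes of prostaglandin synthesis, breakdown and reception, taken by gene name from the 24421 names in the files of an RNA sequencing study of MCa-P1362, a mouse mammary tumour cell line. They are Pla2g4a, Ptgs1, Ptgs2, Ptges, Ptgis, Hpgd, Ptger1, Ptger2 and Ptger4. Flow cytometry had split the line on EpCAM, an adhesion protein of epithelial cells. The 4 groups of 2 libraries each are EpCAM+ cells of monoculture, EpCAM+ cells of coculture, EpCAM- cells of monoculture and EpCAM- cells of coculture. All came from 1 line, raised from a single tumour of a Balb/c female, kept in high glucose DMEM with fetal bovine serum. Some sorted cells were frozen at once and others were cultured and passaged first, and the labels do not tie these to the words coculture and monoculture. Nothing states that the 2 libraries of a group were separate cultures, so a p-value measures no more than their spread, and this may be technical.

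Prostaglandins are short-lived lipid signals. Cytosolic phospholipase A2 frees arachidonic acid from membranes, the cyclooxygenases COX-1 (Ptgs1) and COX-2 (Ptgs2) turn it into prostaglandin H2, and terminal synthases make the final prostanoid from that, prostaglandin E2 by Ptges and prostacyclin by Ptgis. Prostaglandin E2 acts on receptors of the EP family (Ptger genes) and is inactivated by the dehydrogenase Hpgd after uptake into cells. Ptgs1 is usually called the constitutive cyclooxygenase and Ptgs2 the inducible one, and COX-2 is widely studied in mammary tumours.

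The sequences of the windows around the RefSeq starts of both cyclooxygenase genes are shown because their transcripts moved apart between the cultures. Each runs from 250 bases before to 50 after the start, on build GRCm38.p6 (the assembly of mm10), as RefSeq gives it; 7 of the 9 genes matched a window in that table. Capitals mark matches, on either strand, to any of 6 short motifs that were searched. The core of a cyclic AMP response element was written as CGTCA. The E-box searched, which basic helix-loop-helix factors bind, was CACGTG. The palindrome bound by the C/EBP factors known from inflammation was TTGCGCAA. For the AP-1 factors, among them the Fos and Jun proteins, the letters were TGANTCA. The TATA box found before the start of some genes was taken as TATAAA. The GC box, which Sp1 is known to bind in many promoters, was taken as GGGCGG.
Ptgs2, chr1:150099781-150100080, plus strand: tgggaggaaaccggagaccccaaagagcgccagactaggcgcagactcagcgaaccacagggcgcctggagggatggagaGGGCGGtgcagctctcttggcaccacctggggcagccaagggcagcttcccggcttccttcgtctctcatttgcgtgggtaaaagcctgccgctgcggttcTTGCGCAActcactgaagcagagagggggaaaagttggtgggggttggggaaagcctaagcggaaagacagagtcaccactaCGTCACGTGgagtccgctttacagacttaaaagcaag
Ptgs1, chr2:36230176-36230475, plus strand: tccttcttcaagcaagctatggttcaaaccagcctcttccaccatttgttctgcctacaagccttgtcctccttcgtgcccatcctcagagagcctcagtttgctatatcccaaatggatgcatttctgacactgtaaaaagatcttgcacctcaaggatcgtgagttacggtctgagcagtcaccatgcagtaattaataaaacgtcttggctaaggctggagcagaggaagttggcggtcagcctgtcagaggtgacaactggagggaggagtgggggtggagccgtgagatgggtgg

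The Ptgs2 window held a GC box, the C/EBP palindrome, and a cyclic AMP response element core whose last bases overlap the E-box. The core (bases 264 to 268 of the window) and the E-box (267 to 272) lie after the RefSeq start, which follows base 250. The GC box (81 to 86) and the palindrome (182 to 189) lie before it. The Ptgs1 window held none of the 6. Of 32851 RefSeq windows of this length, 35.7% held the GC box, 20.8% the cyclic AMP response element core, 7.15% the E-box and 0.183% the C/EBP palindrome. A match describes letters in a window, not binding.

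The libraries were much alike in size. Values are FPKM, fragments scaled by transcript length and by library depth, so levels can be set side by side between genes. They summed to between 387489 and 414612 per library. The number of reads is unknown, and the ratios at which low values pile up put the depths at 0.914 to 1.16 of that of monoculture EpCAM+ replicate 1. The 8 epithelial markers summed to 9378 to 9481 FPKM in monoculture EpCAM+, 10085 to 10193 in coculture EpCAM+, 18.8 to 19.8 in monoculture EpCAM- and 32.9 to 33.6 in coculture EpCAM-. The 9 mesenchymal markers summed to 17.0 to 17.1, 205.7 to 206.6, 12824 to 12863 and 12014 to 12072 FPKM in the same order of groups. The EpCAM+ libraries of monoculture thus held mesenchymal marker transcripts at a median of 0.127% of their level in EpCAM- of the same culture (0.0762% to 0.472% over markers and libraries), and those of coculture at a median of 1.70% (1.58% to 1.97%). Leukocyte, mast cell and platelet, and endothelial marker lists summed to between 0.147 and 7.05 FPKM in any library.

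Ptgs2, the inducible cyclooxygenase (chromosome 1, 150100031 to 150108227 of mm10), prompted the choice of these genes through its levels in the 2 cultures, so its values are described without a test. It stood at 90.0 and 88.4 FPKM in EpCAM+ libraries of monoculture, against 29.0 and 28.5 in EpCAM+ libraries of coculture. EpCAM- libraries of monoculture had 38.2 and 37.4 FPKM, against 69.8 and 70.0 in EpCAM- libraries of coculture. The ratio of monoculture to coculture was therefore 3.10 in EpCAM+ and 0.541 in EpCAM-. Set by fraction, the ratio of EpCAM+ to EpCAM- was 2.36 in monoculture and 0.411 in coculture. From high to low the groups ran monoculture EpCAM+, coculture EpCAM-, monoculture EpCAM-, coculture EpCAM+, and no neighbours in this order overlapped. On the scale of log2(FPKM + 1) the changes were 1.60 in EpCAM+ and -0.87 in EpCAM-, and the difference of those changes was 2.47.

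**Figure D1:**
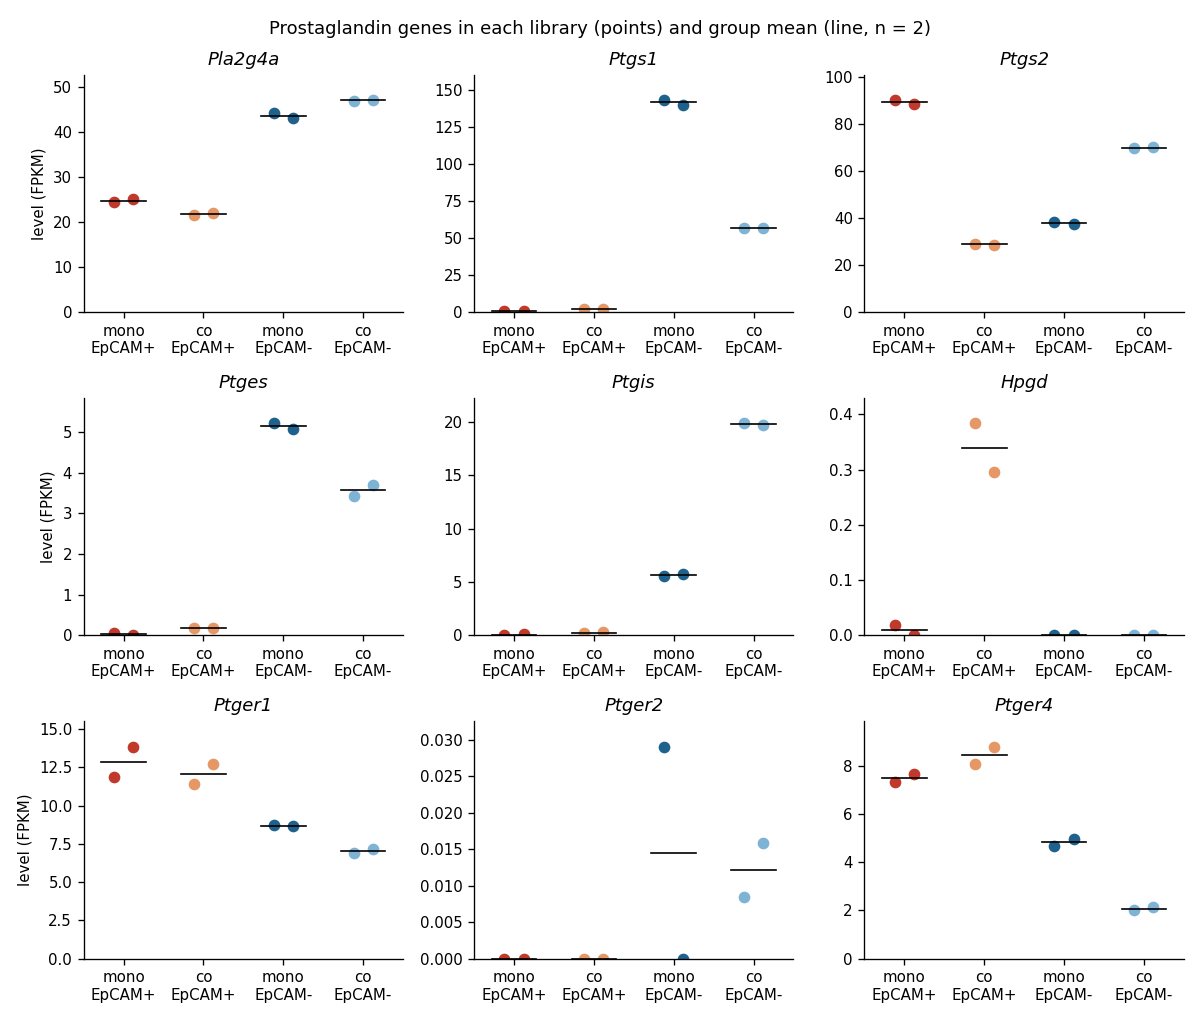
Levels of the 9 genes in FPKM on the vertical axes (each panel has its own scale, from 0), by group on the horizontal axes; points are libraries and lines are means of the 2 libraries. Ptgs2 is highest in monoculture EpCAM+ and lowest in coculture EpCAM+, while Ptgs1, Ptges and Ptgis are near 0 in both EpCAM+ groups.

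Ptgs1, the other cyclooxygenase (chromosome 2, 36230426 to 36252272), was a transcript of EpCAM- cells. EpCAM+ libraries had 0.655 and 0.544 FPKM in monoculture and 2.39 and 1.81 in coculture. EpCAM- libraries had 143 and 140.4 FPKM in monoculture, against 56.9 and 56.8 in coculture. Every EpCAM- library lay above every EpCAM+ library. On log2(FPKM + 1) it was lower in EpCAM+ by -6.48 (SE 0.0801, adjusted p = 7.13e-11, limma) in monoculture and by -4.23 (SE 0.0801, adjusted p = 7.80e-10) in coculture. Fewer cells of a type and less RNA per cell cannot be told apart in such bulk libraries.

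Between cultures, Ptgs1 rose in EpCAM- cells of monoculture, at 2.50 times its level in coculture (1.31 on the log2 scale, SE 0.0801, adjusted p = 4.46e-06). It was higher in both EpCAM- libraries of monoculture, where Ptgs2 was lower. In EpCAM+ cells it was lower in monoculture (-0.95 on the log2 scale, SE 0.0801, adjusted p = 5.50e-05), a size that was -1.64 with a pseudocount of 0.1 in place of 1. In EpCAM+ libraries of monoculture it lay at 0.462% and 0.383% of the EpCAM- mean. The mesenchymal markers there ran from 0.0762% to 0.472%, but only Pdgfrb (0.438% and 0.472%) lay above 0.170%, so Ptgs1 was above all the others. In coculture Ptgs1 lay at 4.20% and 3.18%, above the 1.58% to 1.97% of the markers. With that share subtracted, 1.43 and 0.844 FPKM remained, against 0.476 and 0.364 in EpCAM+ libraries of monoculture, and the log2 fold change became -0.58 (adjusted p = 0.00436).

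The cyclooxygenase pair was thus made up differently in each group. Ptgs2 supplied 99.3% ± 0.0788 of the summed FPKM of both genes in monoculture EpCAM+ and 93.2% ± 1.17 in coculture EpCAM+ (SD, n = 2). In EpCAM- cells it supplied 21.0% ± 0.00431 in monoculture and 55.2% ± 0.0731 in coculture. The sum of both was 89.8 ± 1.20 and 30.8 ± 0.726 FPKM in EpCAM+ of monoculture and coculture, and 179.7 ± 2.68 and 126.7 ± 0.0222 FPKM in EpCAM-. Summed cyclooxygenase transcript was therefore higher in monoculture than in coculture in both fractions, and higher in EpCAM- than in EpCAM+ in both cultures; these sums include Ptgs2 and were not tested.

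**Figure D2:**
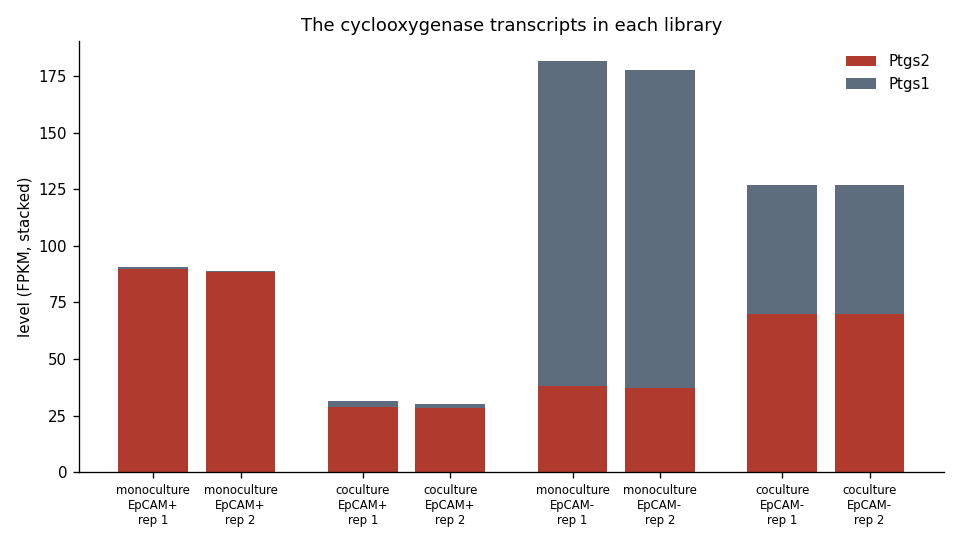
Stacked bars of Ptgs2 (bottom) and Ptgs1 (top) FPKM in each of the 8 libraries. EpCAM+ bars are nearly all Ptgs2, and in EpCAM- bars Ptgs2 makes up 21.0% in monoculture and 55.2% in coculture.

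Upstream, Pla2g4a, the cytosolic phospholipase A2 that releases arachidonic acid (chromosome 1, 149829618 to 149961290), was expressed in every group. It stood at 24.3 and 25.1 FPKM in monoculture EpCAM+, 21.6 and 21.9 in coculture EpCAM+, 44.0 and 43.0 in monoculture EpCAM- and 46.9 and 47.0 in coculture EpCAM-. The EpCAM+ libraries all lay below the EpCAM- libraries. The log2 fold change of EpCAM+ against EpCAM- was -0.79 (SE 0.0271, adjusted p = 2.44e-08) in monoculture and -1.08 (SE 0.0271, adjusted p = 4.20e-09) in coculture. Between cultures it moved by 0.18 in EpCAM+ (adjusted p = 0.00118) and by -0.11 in EpCAM- (adjusted p = 0.00988). Leaving out monoculture EpCAM- replicate 2 ended the call in EpCAM- (adjusted p = 0.0503).

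The terminal synthases Ptges and Ptgis were both transcripts of EpCAM- cells, and they went in opposite directions between the cultures there. Ptges, the inducible microsomal prostaglandin E synthase (chromosome 2, 30889471 to 30929863), had 0.0494 and 0.00926 FPKM in monoculture EpCAM+ and 0.171 and 0.169 in coculture EpCAM+. It had 5.22 and 5.07 FPKM in monoculture EpCAM-, against 3.44 and 3.70 in coculture EpCAM-. The log2 fold change of EpCAM+ against EpCAM- was -2.58 (SE 0.0523) in monoculture and -1.97 (SE 0.0523) in coculture. Ptges reached 1 FPKM in EpCAM- libraries alone, the fraction where it is high, so no p-value is given for this difference. In EpCAM- it was higher in monoculture, by 0.43 (SE 0.0523, adjusted p = 2.03e-04).

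The other prostaglandin E synthases, which belong to the further pathway genes, were present in both fractions. Ptges3, the cytosolic form, stood at 130.0 ± 2.42 FPKM in monoculture EpCAM+, 121 ± 0.262 in coculture EpCAM+, 93.3 ± 2.37 in monoculture EpCAM- and 109 ± 1.22 in coculture EpCAM- (SD, n = 2). It was higher in EpCAM+ by 0.47 (adjusted p = 3.23e-07, limma) in monoculture and 0.14 (adjusted p = 7.37e-04) in coculture. The median change over all genes was itself 0.23 in monoculture and 0.26 in coculture, so the coculture value of Ptges3 lay below it. Scaling by the median of ratios took these medians to 0.01 and 0.00, so small differences like these depend on the scaling. Ptges2, another membrane-bound form, stood at 12.1 ± 0.198, 13.6 ± 0.0850, 8.78 ± 1.05 and 10.3 ± 0.0124 FPKM in the same order of groups, and was higher in EpCAM+ by 0.42 (adjusted p = 3.39e-04) and 0.37 (adjusted p = 7.42e-04).

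Ptgis, the prostacyclin synthase (chromosome 2, 167191805 to 167240604), had 0.0322 and 0.0814 FPKM in monoculture EpCAM+ and 0.245 and 0.268 in coculture EpCAM+. In EpCAM- cells it fell to 5.61 and 5.74 FPKM in monoculture, against 19.9 and 19.7 in coculture, or -1.64 on the log2 scale (SE 0.0472, adjusted p = 8.04e-08). It was lower in EpCAM+ than in EpCAM- by -2.66 (SE 0.0472) in monoculture and -4.05 (SE 0.0472) in coculture. Ptgis too reached 1 FPKM in EpCAM- libraries alone, so no p-value is given for this difference. In EpCAM+ libraries it lay at 0.567% and 1.43% of the EpCAM- mean in monoculture, above all 9 mesenchymal markers, and at 1.24% and 1.35% in coculture, below all 9. It was at 0 in both coculture EpCAM+ libraries once the marker share was subtracted. As plain ratios, EpCAM+ held 1.00% of the EpCAM- level in monoculture and 1.29% in coculture.

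**Figure D3:**
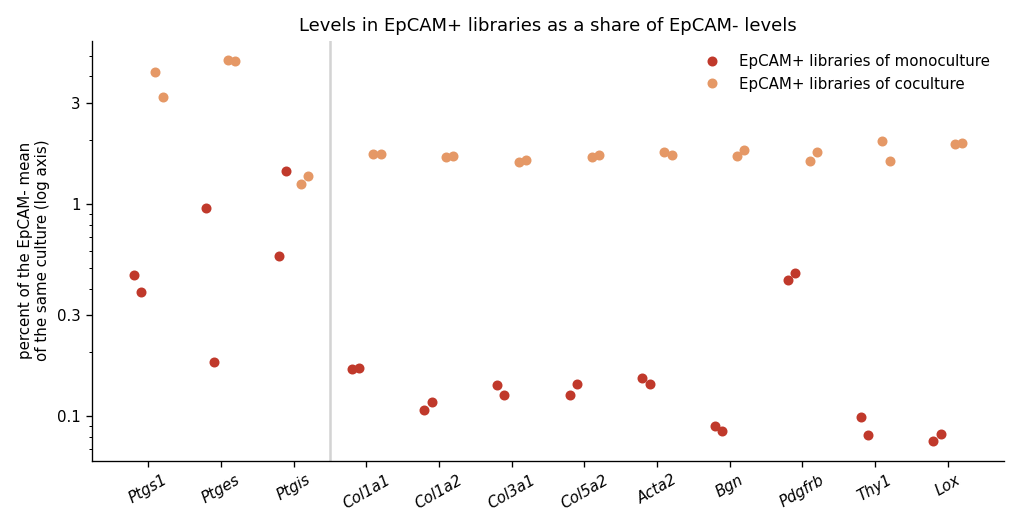
Level in each EpCAM+ library as a percent of the EpCAM- mean of the same culture, on a log axis, for Ptgs1, Ptges and Ptgis (left of the line) and 9 mesenchymal markers (right). In coculture the markers lie between 1.58% and 1.97%, with Ptgs1 and Ptges above and Ptgis below them; in monoculture they lie between 0.0762% and 0.472%, with both Ptgis libraries above them.

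Ptges in EpCAM+ libraries lay at 0.961% and 0.180% of the EpCAM- mean in monoculture and at 4.78% and 4.72% in coculture, the coculture values above the markers but at under 0.2 FPKM. Between cultures, Ptges in EpCAM+ moved by -0.18 (adjusted p = 0.0202) and Ptgis by -0.25 (adjusted p = 0.00334) on the log2 scale. The mesenchymal marker share also differed between these libraries, as given above. With the share subtracted the Ptges change was -0.12 (adjusted p = 0.0968) and the Ptgis value turned to 0.07. After quantile normalization neither was called, at adjusted p = 0.447 for Ptges and 0.260 for Ptgis. Leaving out monoculture EpCAM+ replicate 2 (adjusted p = 0.0946), coculture EpCAM+ replicate 1 (0.0713) or coculture EpCAM+ replicate 2 (0.0682) also ended the Ptges call.

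Hpgd, which starts the breakdown of prostaglandins (chromosome 8, 56294585 to 56321043), stayed below the level needed for a test, 1 FPKM in at least 2 libraries. It was at 0.0179 and 0 FPKM in monoculture EpCAM+, against 0.383 and 0.296 in coculture EpCAM+, and was listed at 0 in all 4 EpCAM- libraries. Coculture EpCAM+ was thus the group with the highest Hpgd, though Hpgd was low throughout and was not tested.

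Among the prostaglandin E2 receptors, Ptger4, a receptor that raises cyclic AMP (chromosome 15, 5206661 to 5244187), stood at 7.35 and 7.68 FPKM in monoculture EpCAM+ and at 8.09 and 8.82 in coculture EpCAM+. EpCAM- libraries had 4.69 and 4.99 FPKM in monoculture, against 2.01 and 2.15 in coculture. All EpCAM+ libraries lay above all EpCAM- libraries. It was higher in EpCAM+ by 0.55 (SE 0.0560, adjusted p = 2.68e-05) in monoculture and by 1.62 (SE 0.0560, adjusted p = 3.00e-08) in coculture. In EpCAM- it was 2.33 times as high in monoculture as in coculture (0.92 on the log2 scale, SE 0.0560, adjusted p = 4.17e-06). In EpCAM+ its difference of -0.15 did not pass (adjusted p = 0.0563), and it passed without coculture EpCAM+ replicate 1 (-0.21, adjusted p = 0.0428).

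Ptger1 encodes the EP1 receptor, known for raising calcium (chromosome 8, 83666678 to 83672753). It had 11.8 and 13.8 FPKM in monoculture EpCAM+ and 11.4 and 12.7 in coculture EpCAM+, and these groups overlapped. It had 8.69 and 8.64 FPKM in monoculture EpCAM- and 6.88 and 7.17 in coculture EpCAM-. EpCAM+ was higher by 0.51 (SE 0.0743, adjusted p = 2.40e-04) in monoculture and 0.70 (SE 0.0743, adjusted p = 3.51e-05) in coculture. These values are uncertain, because the use of strand in counting is not given in the sources used here, and without it reads from either strand at this place cannot be told apart.

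Ptger2, the other cyclic AMP-raising receptor (chromosome 14, 44988195 to 45003820), was listed at 0 in all 4 EpCAM+ libraries. It read 0.0290 and 0 FPKM in monoculture EpCAM- and 0.00839 and 0.0158 in coculture EpCAM-, and was not tested. Ptger4 was therefore the receptor of this pair with a measurable level in every library. Ptger4 is touched by the same limit, as 15.3% of its exonic bases are shared with a processed pseudogene on the opposite strand.

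**Figure D4:**
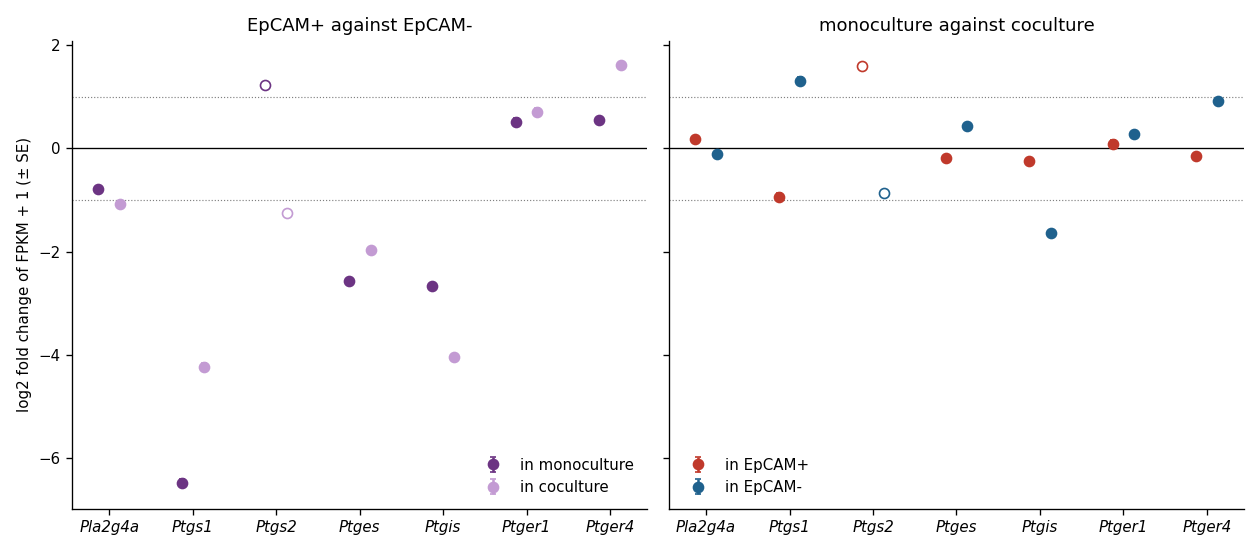
Log2 fold changes of FPKM + 1 (± SE, often smaller than the point) of the 7 genes that reached 1 FPKM in 2 libraries; left, EpCAM+ against EpCAM- in both cultures, right, monoculture against coculture in both fractions; open circles are Ptgs2, which has no test, and dotted lines mark 2-fold. Ptgs1, Ptges and Ptgis lie below 0 on the left in both cultures, and Ptger4 above.

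Counted at an adjusted p under 0.05 and a change of at least 2-fold, 6 of the 8 genes other than Ptgs2 could be tested. In monoculture, 3 were lower in EpCAM+ (Ptgs1, Ptges and Ptgis) and none higher, where 28.1% of all 12012 genes tested passed, 15.5% higher and 12.6% lower. In coculture, 4 were lower (the same genes and Pla2g4a) and 1 was higher (Ptger4), where 26.5% of all genes passed, 16.5% higher and 10.1% lower. In EpCAM- cells, 1 gene was higher (Ptgs1) and 1 lower (Ptgis) in monoculture, where 4.52% of all genes passed, 2.56% higher and 1.96% lower. In EpCAM+ cells, limma called none at 2-fold, where 1.94% of all genes passed; 4 passed with no minimum change, where 51.4% of all genes did, and 5 had an unadjusted p under 0.05. With no minimum change all 6 passed in monoculture and in coculture, where 87.9% and 87.2% of all genes did, and all 6 in EpCAM- cells, where 62.7% did. The culture comparisons are those that Ptgs2 was chosen on, so nothing is read from their counts. A gene that entered the test through the group where it is high could hardly fail to differ, so the counts describe and do not support.

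The difference between fractions changed with the culture for several of these genes. The interaction takes the monoculture against coculture change in EpCAM- from that in EpCAM+. Ptgs1 was at -2.25 (SE 0.113, adjusted p = 1.88e-06, limma) and Ptger4 at -1.07 (SE 0.0791, adjusted p = 1.38e-05). Ptgis was at 1.39 (SE 0.0667). It reached 1 FPKM in EpCAM- libraries alone, so no p-value is given. With Ptgis near 0 in EpCAM+, its interaction mostly follows its change of -1.64 in EpCAM-. Ptgs1, Ptger4 and Ptgis are the 3 called at 2-fold, where 8.09% of all genes passed, 2.43% higher and 5.66% lower. With no minimum change 5 passed, where 65.2% of all genes did. Ptgs2 was chosen on this contrast, so nothing is read from these counts. Sizes for genes near 0 in EpCAM+ depend on the pseudocount: with 0.1 in place of 1, Ptgis was at 0.58, and Ptges at -1.59 in place of -0.61. For Ptgis the direction turns on plain ratios: EpCAM- was above EpCAM+ by 99.9-fold in monoculture and 77.2-fold in coculture, a wider gap in monoculture, where the log2(FPKM + 1) scale has the wider gap in coculture. After quantile normalization Ptger4 was at -0.93 (adjusted p = 3.66e-05), under 2-fold, which left 2 members called. Ptgs1 and Ptger4 in EpCAM- were both higher in monoculture, opposite to Ptgs2 and Ptgis there.

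Of 54 further genes of the pathway (prostanoid enzymes, transporters and receptors, arachidonate supply, and the lipoxygenase branch), 24 could be tested. In monoculture 4 were higher and 5 lower in EpCAM+ at 2-fold (37.5%, beside 28.1% of all genes), and in coculture 3 were higher and 1 lower (16.7%, beside 26.5%). Their median log2 fold change was 0.26 in monoculture and 0.31 in coculture, beside 0.23 and 0.26 for all genes. Between cultures, none passed at 2-fold in EpCAM+ by limma (17 of 24 with no minimum change, beside 51.4% of all genes, and 18 at an unadjusted p under 0.05) and 3 did in EpCAM- (12.5%, beside 4.52%). These counts too include genes that entered the test through the group where they are high.

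Slco2a1, the transporter that carries prostaglandins into cells for breakdown, was high in EpCAM+ cells. It stood at 263 ± 2.42 FPKM in monoculture EpCAM+ and 229 ± 2.57 in coculture EpCAM+, against 19.2 ± 0.208 in monoculture EpCAM- and 20.8 ± 0.352 in coculture EpCAM- (SD, n = 2). The log2 fold change of EpCAM+ against EpCAM- was 3.71 (adjusted p = 2.39e-12) in monoculture and 3.40 (adjusted p = 4.81e-12) in coculture. Ptgr2, a reductase acting after Hpgd, was higher in EpCAM+ of coculture by 1.17 (adjusted p = 1.65e-08, limma). Ptgr1, another prostaglandin reductase gene, was lower in EpCAM+ of monoculture by -0.67 (adjusted p = 1.24e-06) and higher in coculture by 0.37 (adjusted p = 5.84e-05).

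Of the receptors for other prostanoids, Ptgir, Tbxa2r and Ptgfr were low, and each reached 1 FPKM in 1 group alone, so they entered the test through the group where they are high and are described without it. Ptgir, the prostacyclin receptor, was listed at 0 in all EpCAM+ libraries and had 2.86 and 2.96 FPKM in monoculture EpCAM-, against 0.313 and 0.346 in coculture EpCAM-. Tbxa2r, the thromboxane receptor, had 3.25 and 2.92 FPKM in monoculture EpCAM-, against 0.328 and 0.633 in coculture EpCAM-, and was at most 0.0310 in any EpCAM+ library. Ptgfr, the prostaglandin F receptor, had its highest level in EpCAM+ cells, at 1.25 ± 0.0709 FPKM in monoculture EpCAM+ and 0.0404 ± 0.0230 in monoculture EpCAM- (SD, n = 2). Ptgdr and Ptger3 were listed at 0 in all 8 libraries, and Ptgdr2 was at most 0.150 FPKM.

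**Figure D5:**
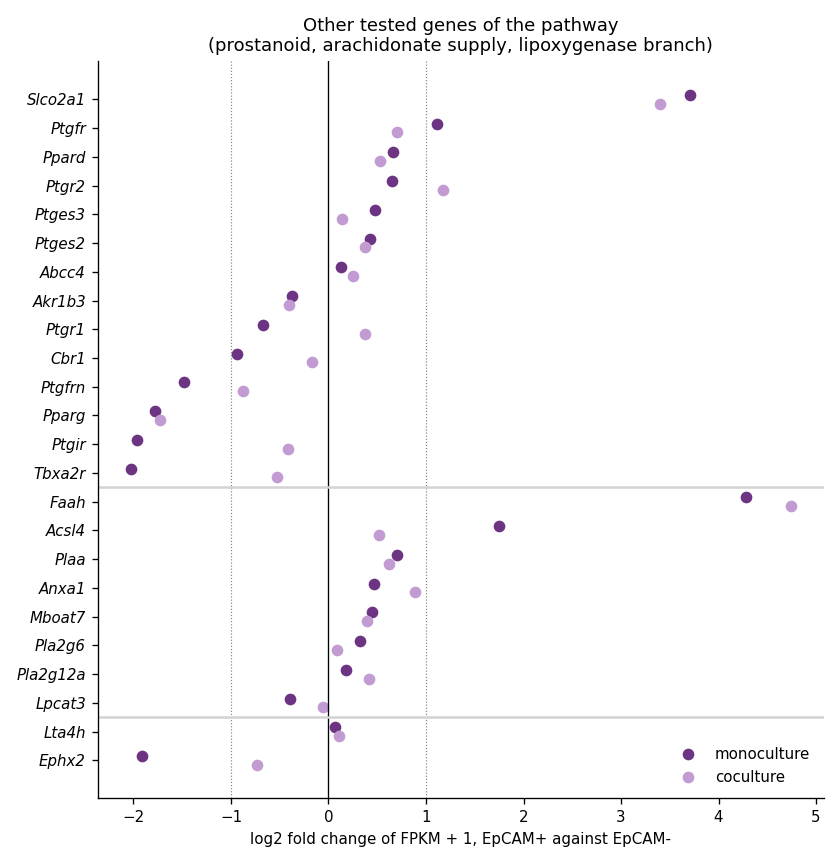
Log2 fold changes of FPKM + 1, EpCAM+ against EpCAM-, in monoculture (dark) and coculture (light) for the 24 further pathway genes tested, grouped as prostanoid genes, arachidonate supply and lipoxygenase branch from top to bottom; dotted lines mark 2-fold. Slco2a1 and Faah lie furthest above 0, and Tbxa2r and Ptgir of monoculture furthest below.

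Other genes of these lists called at 2-fold included Pparg, a nuclear receptor for prostaglandin derivatives, lower in EpCAM+ by -1.78 (adjusted p = 2.18e-08) in monoculture and -1.73 (adjusted p = 3.00e-08) in coculture, and Ptgfrn, lower by -1.48 (adjusted p = 4.53e-10) in monoculture. Acsl4, which activates arachidonic acid for return to membranes, fell to 17.7 ± 0.188 FPKM in EpCAM- of monoculture, against 49.1 ± 0.410 in EpCAM- of coculture (-1.42, adjusted p = 5.21e-09). It was 1.75 higher in EpCAM+ than in EpCAM- of monoculture (adjusted p = 9.79e-11). Faah, a fatty acid amide hydrolase, was higher in EpCAM+ by 4.28 in monoculture and 4.74 in coculture. It was at most 0.0680 FPKM in any EpCAM- library and entered the test through EpCAM+, so no p-value is given. Of the 15 lipoxygenase branch genes only Lta4h and Ephx2 reached the test. Ephx2, an epoxide hydrolase, was lower in EpCAM+ of monoculture by -1.92. It was at most 0.413 FPKM in any EpCAM+ library and entered the test through EpCAM-, so it has no p-value here either.

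Genes known to respond to cyclic AMP, the second messenger of Ptger4, did not share a direction. Of 12 listed, 11 were tested. In EpCAM+ against EpCAM- at 2-fold, 4 were higher and 2 lower in monoculture (54.5%, beside 28.1% of all genes) and 4 higher and 1 lower in coculture (45.5%, beside 26.5%). Areg, an EGF receptor ligand, was higher in EpCAM+ by 6.74 in monoculture and 5.80 in coculture. It was at most 1.02 FPKM in any EpCAM- library and entered the test through EpCAM+, so no p-value is given. The nuclear receptor Nr4a2 was lower in EpCAM+ by -1.67 (adjusted p = 2.05e-08) and -1.31 (adjusted p = 1.06e-07). The kinase gene Sik1 was higher in EpCAM+ by 1.65 in monoculture and 1.86 in coculture, and the phosphodiesterase gene Pde4b by 1.01 and 2.46. Between cultures at 2-fold, 1 of the 11 was lower in EpCAM+ of monoculture (9.09%, beside 1.94% of all genes). In EpCAM- 1 was higher and 1 lower (18.2%, beside 4.52%). The growth factor-induced gene Fos was lower in EpCAM+ of monoculture by -1.01 (adjusted p = 3.32e-08), at 123 ± 1.71 FPKM, against 248 ± 1.42 in EpCAM+ of coculture. In EpCAM- of monoculture the nuclear receptor Nr4a1 was higher by 1.01 (adjusted p = 2.82e-06) and Fosb, a relative of Fos, lower by -1.07 (adjusted p = 1.10e-08).

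Of 9 genes for proteins that bind AU-rich elements, the sequences through which Ptgs2 mRNA is known to be destabilised or stabilised, all were tested. Zfp36, which encodes the mRNA-destabilising protein tristetraprolin, stood at 18.6 ± 0.330 FPKM in monoculture EpCAM+, 28.3 ± 1.19 in coculture EpCAM+, 54.8 ± 0.525 in monoculture EpCAM- and 29.8 ± 1.14 in coculture EpCAM-. Its interaction was -1.44 (SE 0.054, adjusted p = 4.66e-07, limma). It was the 1 gene of the 9 called at 2-fold there (11.1%, beside 8.09% of all genes). With no minimum change, 5 of the 9 were higher and 2 lower in the interaction, where 65.2% of all genes passed. Among the higher were Hnrnpd (0.55) and Khsrp (0.35), and any link of these genes to Ptgs2 was not tested. Zfp36l1, a relative of Zfp36, was higher in EpCAM+ by 2.18 (adjusted p = 1.56e-10) in monoculture and 2.85 (adjusted p = 4.89e-11) in coculture. Celf2 was called lower in EpCAM+ of monoculture (-1.95, adjusted p = 0.00367), but its EpCAM- libraries there differed widely, at 8.02 and 21.0 FPKM.

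The genes whose profile was most like that of Ptgs2 were found by the root mean square difference between group means of log2(FPKM + 1) over the 4 groups, each profile centred on its own mean, among 9266 genes. The 5 nearest were Snord57 (0.25), Hmga2 (0.29), Snord52 (0.29), Dusp5 (0.32) and Lrrc8c (0.33). Dusp5, a phosphatase of ERK kinases, stood at 38.7 ± 0.728 FPKM in monoculture EpCAM+, 16.3 ± 0.479 in coculture EpCAM+, 11.2 ± 0.954 in monoculture EpCAM- and 26.9 ± 0.597 in coculture EpCAM-. Hmga2, a chromatin protein, stood at 44.6 ± 1.30, 24.1 ± 0.0861, 25.6 ± 0.266 and 38.2 ± 0.507 FPKM in the same order. They were picked for this likeness and carry no test.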

How the data were processed

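Paired reads of 150 bp came from total RNA. The deposited values are FPKM that the authors made, in a file for each library and per gene name. For the processing, the submitters' processing notes list cutadapt and FastQC, the aligner HISAT2, SAMtools, HTSeq and edgeR, with no version, and build mm10. Neither the annotation, the handling of strand nor any scaling between libraries is stated in these sources. Values became log2(FPKM + 1), which understates changes of low genes. The 12012 genes that reached 1 FPKM in 2 or more libraries went into limma 3.58.1 (R 4.3.3), with a mean for each of the 4 groups, 4 residual degrees of freedom and an eBayes trend; the script was tested on simulated data. Benjamini-Hochberg adjustment of the two-sided p-values ran over all these genes. With 2 libraries against 2, no exact permutation test gives less than p = 0.333. The members, lists and rule for named genes were chosen with earlier results of these data known. Named are all members, some of the genes called in the other lists that averaged 1 FPKM or more in their higher group, and the 5 genes nearest to Ptgs2 among those averaging at least 5 FPKM in some group. Alternatives were other pseudocounts, filters and scalings, no trend, a replicate block, subtraction of the other fraction's share, the 4 compared libraries alone, and each library left out. Gene positions are those of GENCODE on mm10. Tables were made with Python 3.11.15 and pandas 2.3.3. An item that bears on Ptger1 is not reported here.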

Additional observations from a re-analysis of the deposited data

Results flagged for a closer look

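For 5 genes the difference between EpCAM+ and EpCAM- changed with the culture by the interaction test on log2(FPKM + 1). The interaction was -2.25 for Ptgs1 (adjusted p = 1.88e-06, limma), -1.07 for Ptger4 (adjusted p = 1.38e-05) and 0.28 for Pla2g4a (adjusted p = 3.74e-04). It was 1.39 for Ptgis and -0.61 for Ptges. Both reached 1 FPKM in EpCAM- libraries alone, so no p-value is given for them. The value of Ptgis was 0.58 with a pseudocount of 0.1, and on plain ratios its direction turns, with EpCAM- above EpCAM+ by 99.9-fold in monoculture and 77.2-fold in coculture. With no minimum change, 65.2% of all genes tested passed the same test. Ptgs2 was chosen on this contrast, so nothing is read from the count of 5.

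Ptgs2 went in opposite directions in the fractions, higher in monoculture than in coculture in both EpCAM+ libraries and lower in both EpCAM- libraries. Its interaction of 2.47 was not tested, since these values led to its choice.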

How the results depend on the processing

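Of 564 recomputed values of the tested members, 547 kept direction and side of the threshold, 10 lost a call, 5 gained one and 2 reversed: Ptgis in EpCAM+ between cultures once the other fraction's share was subtracted (0.0695) and Ptger1 in the same comparison without monoculture EpCAM+ replicate 2 (-0.0252; -0.0252 to 0.185 over the libraries left out). Of 94 recomputed values of Ptgs2, 78 moved by no more than the limma standard error of the main value, 16 moved by more and 0 reversed. Its value for EpCAM+ against EpCAM- in monoculture was lowest after scaling by the median of ratios, at 0.96, under 2-fold. Scaling by the median of ratios moved the median of all genes in EpCAM+ against EpCAM- to 0.01 in monoculture and 0.00 in coculture. With no minimum change, members called were 6 in monoculture, 4 in EpCAM+, 6 in EpCAM- and 5 in the interaction. Further pathway genes called were then 23 in monoculture, 22 in coculture, 17 in EpCAM+, 17 in EpCAM- and 15 in the interaction. Of all genes tested, 87.9% passed in monoculture, 87.2% in coculture, 51.4% in EpCAM+, 62.7% in EpCAM- and 65.2% in the interaction. Members called between cultures in EpCAM+ were 3 with a pseudocount of 0.1 and 1 with 0.5, and 0 to 1 with a library left out, the 1 being Ptgs1 (-1.08) without coculture EpCAM+ replicate 2; the low levels of these genes let the pseudocount set the size. Further pathway genes called in coculture were 8 with a pseudocount of 0.1. With a filter of 5 FPKM, which tests fewer genes, they were 5 in monoculture, 1 in EpCAM- between cultures and 2 in the interaction. After quantile normalization they were 3 in the interaction (the cause was not tested). Shares over all genes were not worked out for the other pseudocounts, filters and scalings, so nothing is read from the counts there. Libraries of the same replicate number showed no shared deviation, with correlations between -0.0726 and 0.0406. This cannot tell whether the numbers mark a shared culture or sort. The replicate block left 234 genes called between cultures in EpCAM+ in place of 233, with as many members called at 2-fold as before. Under it Ptger4 passed in EpCAM+ between cultures (adjusted p = 0.0269, limma). Without counts, no limit of detection can be given for Hpgd and Ptger2.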

Other observations

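Ptgs2os2, a long noncoding RNA gene close to Ptgs2 that was looked at after its values were seen, stood at 0.922 and 0.814 FPKM in monoculture EpCAM+, against 0.672 and 0.630 in coculture EpCAM+. In EpCAM- it had 2.19 and 1.96 FPKM in monoculture, against 3.23 and 3.02 in coculture. It was thus higher in monoculture in EpCAM+ and lower in monoculture in EpCAM-, as Ptgs2 was, while between fractions it was lower in EpCAM+ in both cultures, unlike Ptgs2. Ptgs2os, another noncoding RNA gene there, did not share this: it had 0.174 and 0.206 FPKM in monoculture EpCAM+, against 0.188 and 0.167 in coculture EpCAM+, which overlap, and 0.463 and 0.522 in monoculture EpCAM-, against 0.530 and 0.712 in coculture EpCAM-. No test was made.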
